A study of Mus musculus with 3530 samples.

Results

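A set of 9 genes linked to the lineages of cortical interneurons was followed through single neurons of the mouse medial prefrontal cortex. They were taken by name from the table of read counts, in which all 9 of the listed genes were found among 23354 genes: Dlx1, Dlx2, Dlx5, Dlx6, Lhx6, Prox1, Adarb2, Nr2f2 and Npas1. Inhibitory neurons of the cortex are born in the ganglionic eminences of the ventral forebrain and migrate into the cortex, and homeobox genes of the Dlx family act in nearly all of them. Lhx6, a LIM-homeobox factor that acts downstream of Nkx2-1, is known for its role in the medial ganglionic eminence, the source of the Sst and Pvalb interneurons. Prox1, a homeobox factor, and Nr2f2, an orphan nuclear receptor also called COUP-TFII, are known from the caudal ganglionic eminence, the source of the Vip and Sncg interneurons and of most Lamp5 interneurons. Npas1 is a bHLH-PAS factor found in interneurons. Adarb2 is an RNA-binding relative of the RNA-editing enzymes rather than a transcription factor, and it is widely used as a marker of caudally derived interneurons.

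The cells were sequenced one by one with Smart-seq2 from TRAP2;Ai14 mice, in which neurons that are active while tamoxifen is present become permanently red through Cre driven from the Fos locus. All groups carry both alleles. The 3530 cells came from 20 mice in 4 conditions, named by the labels as Fear-Recall (1342 cells), Context-Only (912), Fear-Only (841) and Homecage (435), with 5 mice each. The titles put 1806 cells in a gate called pos and 779 in a gate called neg, which here are read as the red and non-red sorts; 849 cells carry no gate and 96 of 1 Homecage mouse carry both words. Mouse age and the days of training and labelling were not used here, since the labels do not give them, nor do they say what mice of the same number have in common. Counts per cell ran from 100002 to 6840943 with a median of 813078, and a median of 6718.5 genes was detected. Counts were summed per mouse before any test of levels. Conditions were compared between mice, and gates within mice.

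Clustering, with the 9 genes and their antisense neighbours left out, gave 2329 excitatory and 1201 inhibitory neurons. The inhibitory neurons were split by marker genes into classes that were Vip-like (46.3% of inhibitory cells), Sst-like (12.7%), Sncg-like (12.6%), Lamp5-like (9.74%) and Pvalb-like (4.08%), called by the marker alone from here on, and 14.7% stayed without a name. The unnamed cells had a median of 2518 genes against 5518 in all inhibitory neurons, and they made up 29.8% of the inhibitory neurons in Homecage, 19.9% in Context-Only, 9.80% in Fear-Recall and 6.86% in Fear-Only. In each condition most of them came from the mouse of set 2, which gave 36 of 51 in Homecage, 50 of 65 in Context-Only, 34 of 39 in Fear-Recall and 14 of 21 in Fear-Only. Without these 4 mice the shares were 14.4%, 6.02%, 2.08% and 3.14%, and that of Fear-Only was 11.1% without Fear-Only 3. The Sst class held a cluster of 125 cells led by Th, Tac1 and Sst, whose Sst and Pvalb marker scores were nearly equal, at 1.37 each, and a cluster of 27 cells led by Chodl and Nos1.

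Promoter sequences are shown for the 3 genes whose presence or absence separated the classes most fully. Each is the 250 bases before a RefSeq start on GRCm38.p6, written 5′ to 3′ along the strand of the gene. Where a gene had several such starts, the window nearest the start of the gene is shown. Capitals mark TAATTA, the core recognised by many homeodomain proteins, Dlx proteins among them; the motif reads the same on both strands. In this window Lhx6 (chr2:36105409-36105658, minus strand) and Prox1 (chr1:190170828-190171077, minus strand) held no TAATTA, and Adarb2 (chr13:8202616-8202865, plus strand) held 1.
Lhx6: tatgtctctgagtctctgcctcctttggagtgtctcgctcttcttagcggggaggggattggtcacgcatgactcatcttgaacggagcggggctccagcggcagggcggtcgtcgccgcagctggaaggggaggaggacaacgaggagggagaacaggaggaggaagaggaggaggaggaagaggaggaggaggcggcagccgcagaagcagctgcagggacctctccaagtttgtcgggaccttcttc
Prox1: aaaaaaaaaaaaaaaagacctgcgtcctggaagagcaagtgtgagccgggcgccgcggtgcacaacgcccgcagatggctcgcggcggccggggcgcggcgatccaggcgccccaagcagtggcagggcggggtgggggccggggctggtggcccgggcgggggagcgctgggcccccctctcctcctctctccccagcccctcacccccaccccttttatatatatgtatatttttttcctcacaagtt
Adarb2: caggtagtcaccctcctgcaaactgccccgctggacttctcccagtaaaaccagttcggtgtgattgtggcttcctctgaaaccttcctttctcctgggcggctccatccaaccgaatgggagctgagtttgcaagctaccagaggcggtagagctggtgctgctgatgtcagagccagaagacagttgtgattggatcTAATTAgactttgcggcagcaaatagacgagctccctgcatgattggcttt
The motif occurred in 1590 of 32851 promoter windows of that length, or 4.84%. GC content was 61.6% for Lhx6, 64.8% for Prox1 and 52.8% for Adarb2, beside a median of 52.4% over all windows. At their other starts, not shown, it was 57.2% and 46% for Lhx6 and 56% for Prox1, and those windows held no TAATTA. A sequence was found for 7 of the 9 genes.

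On GRCm38 with GENCODE vM21, Dlx1 lies on chromosome 2 at 71528113 to 71533981 on the plus strand, and Dlx2 lies beside it at 71543408 to 71546754 on the minus strand. Dlx6 at 6863334 to 6868568 and Dlx5 at 6877805 to 6882085 form the same kind of pair on chromosome 6. Lhx6 (36081953 to 36105408) is also on chromosome 2, Prox1 on chromosome 1 (190118035 to 190170714), Adarb2 on chromosome 13 (8202866 to 8768747), and Npas1 (16455721 to 16477728) and Nr2f2 (70351944 to 70366735) on chromosome 7. Antisense genes share exon bases with Dlx1 (8.15% with Dlx1as), Dlx6 (4.69% with Dlx6os2) and Prox1 (1.59% with Prox1os). Whether strand was used in counting is not stated, so reads of these stretches cannot be told apart.

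These 9 genes were nearly absent from excitatory neurons, and 3 of them, Lhx6, Prox1 and Adarb2, divided the inhibitory classes. Lhx6 was present in Sst and Pvalb cells and almost absent from Vip and Sncg cells, and Prox1 and Adarb2 showed the reverse. The Dlx genes were present in all 5 classes, while Nr2f2 and Npas1 crossed the division by appearing in part of the Sst cells. In what follows a level is the mean over mice of the counts summed over the cells of a class in a mouse and scaled to the same total (CPM), with at least 10 cells, or at least 5 for Pvalb. Levels between classes are given as a description with no test, since the classes were made from the same cells. In each class fewer expressing cells and less RNA per cell cannot be told apart from a summed level alone, so the share of cells with a read is given as well, after thinning every cell to 100000 reads.

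**Figure D1:**
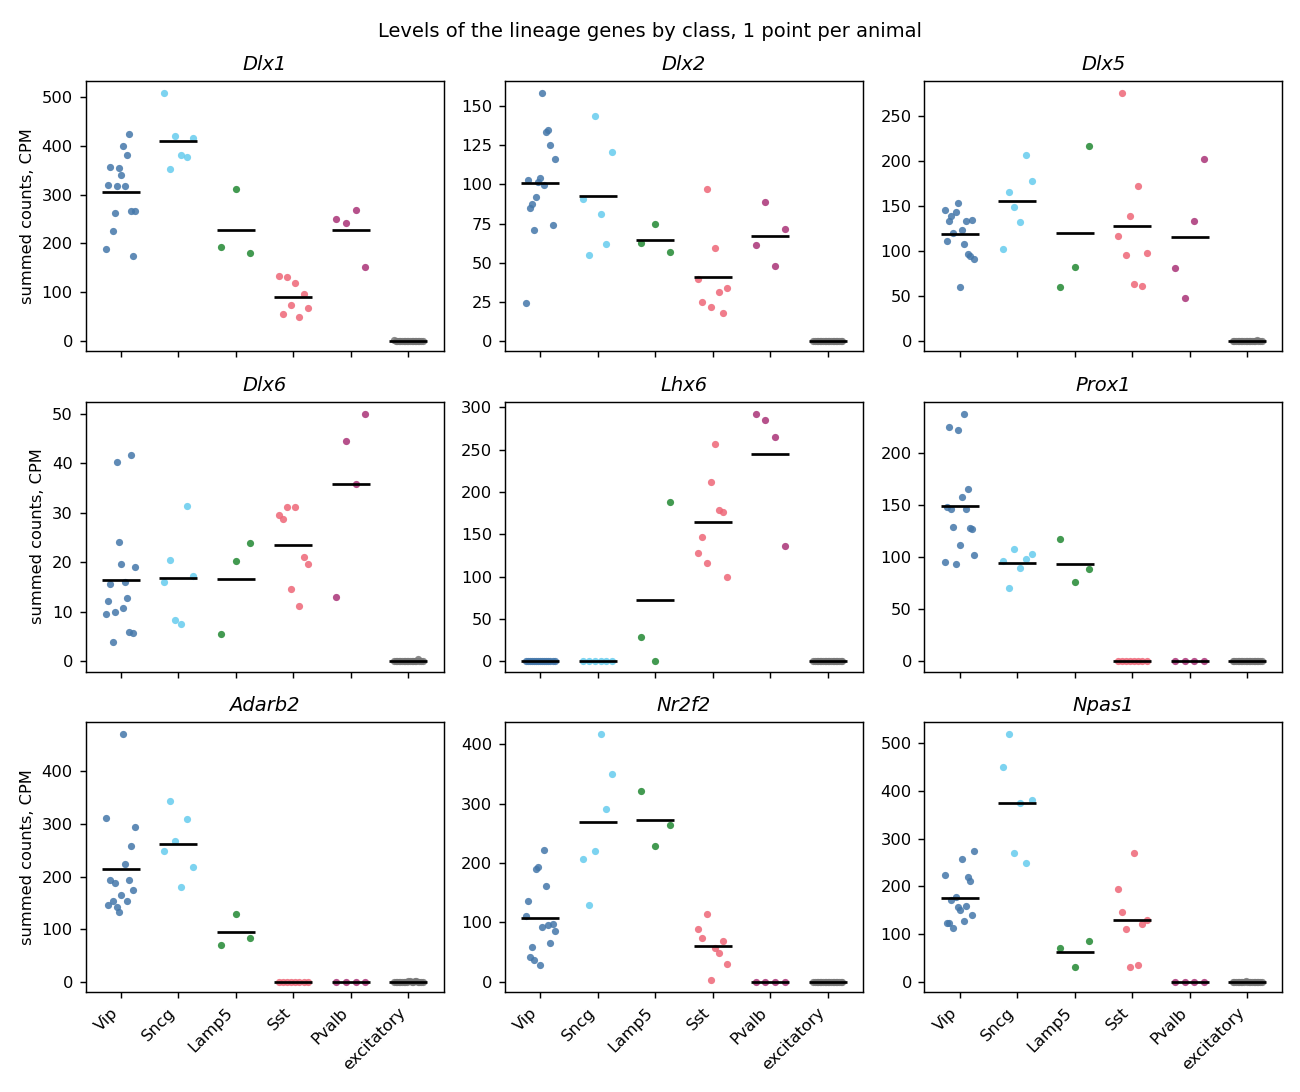
Level of each of the 9 genes, in CPM of the summed counts, in each inhibitory class and in excitatory neurons; each point is 1 mouse and the bar marks the mean. Lhx6 is near 0 in Vip and Sncg cells, and Prox1 and Adarb2 are at 0 in Sst cells of all 8 mice.

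Lhx6 was carried by Sst and Pvalb cells. In the 8 mice with enough Sst cells its level was 99.1 CPM in Homecage 3, 116.2, 146.3 and 211.4 in Fear-Only 3, 2 and 5, 127.7 in Context-Only 3, and 175.7, 178.5 and 256.5 in Fear-Recall 3, 2 and 1. The mean was 164 ± 52.5 CPM (SD, n = 8). In Pvalb cells it was 135.8 CPM in Homecage 3, 264.9 in Fear-Recall 3, 284.6 in Fear-Recall 2 and 292.1 in Fear-Only 3, with a mean of 244.4 ± 73.2 (SD, n = 4). All 4 mice had more in Pvalb than in Sst cells, and Homecage 3 was the lowest mouse in both classes. No Lhx6 read was found in any of the 151 Sncg cells, and 15 reads in 1 cell were found among 556 Vip cells. At equal depth, 80.9% of Sst cells (exact 95% interval 73.8 to 86.8) and 91.8% of Pvalb cells (80.4 to 97.7) had a Lhx6 read, against 0.0429% of excitatory neurons. Intervals cover counting error over cells only: they take cells of the same mouse as independent and leave out the spread between mice. Reads carry no molecular identifiers, so they are not independent molecules.

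Prox1 and Adarb2 were the mirror image. In Vip cells of 15 mice Prox1 averaged 149 ± 46.4 CPM (SD), and Adarb2 averaged 213.6 ± 89.8 CPM. In Sncg cells of 6 mice Adarb2 ran from 180 to 343 CPM with a mean of 261.2 ± 59.4, and Prox1 ran from 70.0 to 107 with a mean of 93.9 ± 13.2. In Lamp5 cells Prox1 was 75.9, 88.3 and 117.01 CPM in Fear-Recall 2, Fear-Recall 3 and Fear-Only 3, and Adarb2 was 129, 83.3 and 70.2 CPM in the same mice. The classes overlapped with one another for Prox1, but Vip was above Sncg in 11 of the 12 mice that had at least 5 cells of both. Not one read of Prox1 or of Adarb2 was found in any Sst cell, which allows a share of cells with a read of up to 2.40%. In 49 Pvalb cells Adarb2 had 0 reads and Prox1 had 20 reads, all in 1 cell. At equal depth a Prox1 read was present in 82% of Vip, 76.2% of Sncg and 68.4% of Lamp5 cells, and an Adarb2 read in 89%, 97.4% and 77.8%, with 0.215% and 0.988% of excitatory neurons for the pair.

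The Dlx genes, which as a family promote the inhibitory fate, did not split the classes but did differ in level. Dlx1 was highest in Sncg cells, where the 6 mice lay between 353 and 507 CPM (mean 409 ± 54.3 SD), and next in Vip cells at 306 ± 74.4 (n = 15). Sncg was above Vip in 10 of the 12 mice with both. In Sst cells Dlx1 lay between 49.1 and 133.9 CPM in 8 mice (mean 90.7 ± 33.8), so the Sst mice did not overlap with the Sncg mice. Lamp5 at 227.5 ± 73.0 (n = 3) and Pvalb at 227.9 ± 52.05 (n = 4) lay between and did not differ beyond their spread. Lamp5 exceeded Sst in 7 of the 7 mice that had both.

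Dlx2, the neighbour of Dlx1, was likewise lowest in Sst cells, with 101 ± 32.0 CPM in Vip, 92.3 ± 34.4 in Sncg, 67.3 ± 17.3 in Pvalb, 64.7 ± 9.02 in Lamp5 and 40.6 ± 26.2 in Sst cells. Neighbours in that order did not differ beyond their spread. Dlx5 did not differ between classes beyond its spread: its 5 means lay between 116 CPM in Pvalb and 155 CPM in Sncg cells, with SDs from 25.4 to 85.2. Dlx6 ran the other way, from 16.5 ± 11.4 CPM in Vip to 23.4 ± 7.85 in Sst and 35.8 ± 16.3 in Pvalb cells, with overlapping mice. Divided by exon length, Dlx6 had the lowest level of the family in Vip cells, at 7.44 CPM per kb against 74.5 CPM per kb for Dlx1. The noncoding Dlx6os1, transcribed in the same locus with 0 exon bases shared with Dlx6, was at 318 ± 97.9 CPM in Sncg and 13.7 ± 9.10 CPM in Sst cells.

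Per cell, the Dlx genes overlapped heavily. At equal depth all but 12 of the 556 Vip cells, and all but 4 of the Sst cells, held a read of at least 1 Dlx gene, and all 151 Sncg and all 49 Pvalb cells did. All 4 Dlx genes were seen together in 35.8% of Sncg, 34.7% of Pvalb, 25.7% of Sst, 16.2% of Vip and 13.7% of Lamp5 cells. Of 2329 excitatory neurons, 2320 held none. Dlx1 alone was present in 99.3% of Sncg cells and 80.9% of Sst cells.

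**Figure D2:**
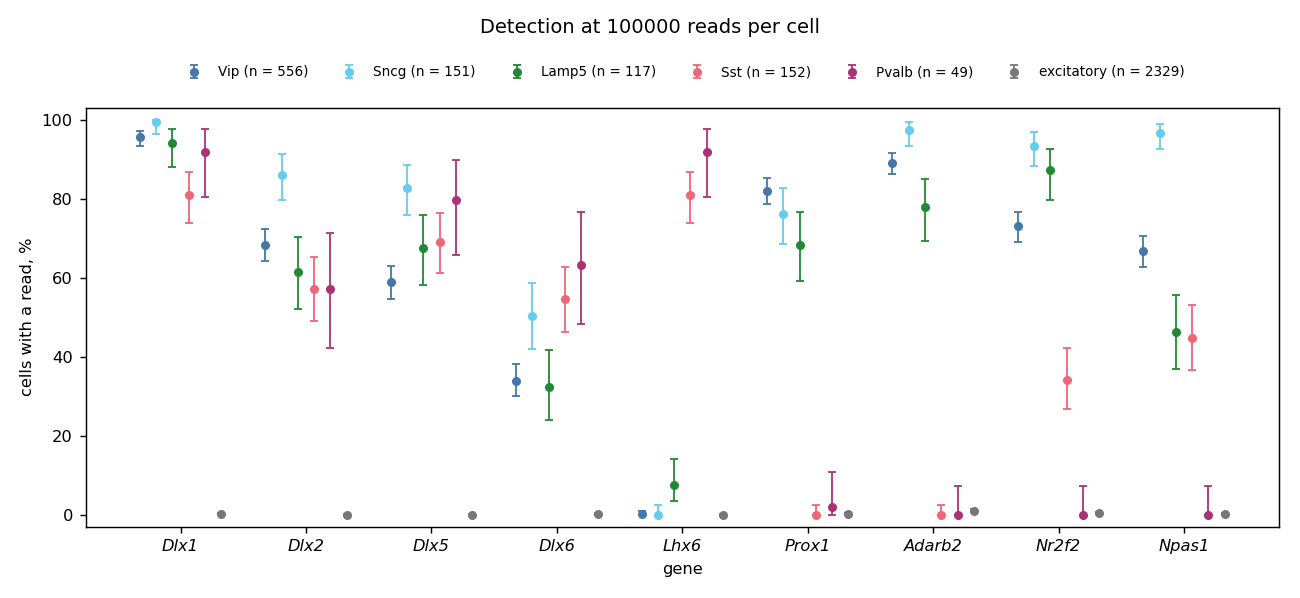
Share of cells of each class, in percent, with at least 1 read of each gene after every cell was thinned to 100000 reads; bars on the points are exact 95% binomial intervals. Dlx1 lies above 80% in all 5 inhibitory classes, and Lhx6 reads 80.9% and 91.8% in Sst and Pvalb cells against at most 7.69% elsewhere.

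Nr2f2 was highest in the Lamp5 and Sncg classes. It stood at 229.2, 264.4 and 322.2 CPM in the 3 Lamp5 mice (mean 271.9 ± 46.99 SD) and at 129 to 417 CPM in the 6 Sncg mice (mean 270 ± 105), and the mice of the classes overlapped. Vip cells had less, at 107.6 ± 60.8 CPM (n = 15), and Sncg was above Vip in 12 of 12 mice. In Sst cells Nr2f2 was lower again at 60.2 ± 34.5 CPM (n = 8), with Fear-Only 5 at 2.47 and Fear-Only 3 at 114. In all 49 Pvalb cells it had 0 reads. Npas1 was highest in Sncg cells, where 6 mice lay between 249.3 and 519 CPM (mean 374.7 ± 103.2), above Vip (175 ± 50.9) in 12 of 12 mice. It was at 130 ± 78.7 CPM in Sst cells, with a spread from 31.1 to 270, at 62.2 ± 27.7 in Lamp5 cells, and in Pvalb cells at 6 reads in 1 cell.

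The Nr2f2 and Npas1 reads of the Sst class came nearly all from 1 of its 2 clusters. At equal depth, in the cluster of 125 cells led by Th, Tac1 and Sst, 41.6% of cells had a Nr2f2 read and 54.4% a Npas1 read. In the cluster of 27 cells led by Chodl and Nos1, the markers of long-range projecting Sst cells, 0 of 27 had either, which allows up to 12.8%. Pooled over cells, the larger cluster stood at 79.9 CPM of Nr2f2 and 129 CPM of Npas1, and the smaller at 0 and 0.0355 CPM, while Lhx6 was present in both at 147.6 and 222.9 CPM. The pair also went together within cells: of the Sst cells, 47 had a read of both, 21 of Npas1 alone, 5 of Nr2f2 alone and 79 of neither.

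Lhx6 and Adarb2 were rarely in the same cell. Over all 1201 inhibitory neurons at equal depth, 175 had Lhx6 alone, 829 had Adarb2 alone, 191 had neither and 6 had both. In Sst cells 29 had neither and all others Lhx6 alone, and in Pvalb cells 45 had Lhx6 alone and 4 neither. Of the 6 cells with both, 5 were in the Lamp5 class and 1 in the Vip class.

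**Figure D3:**
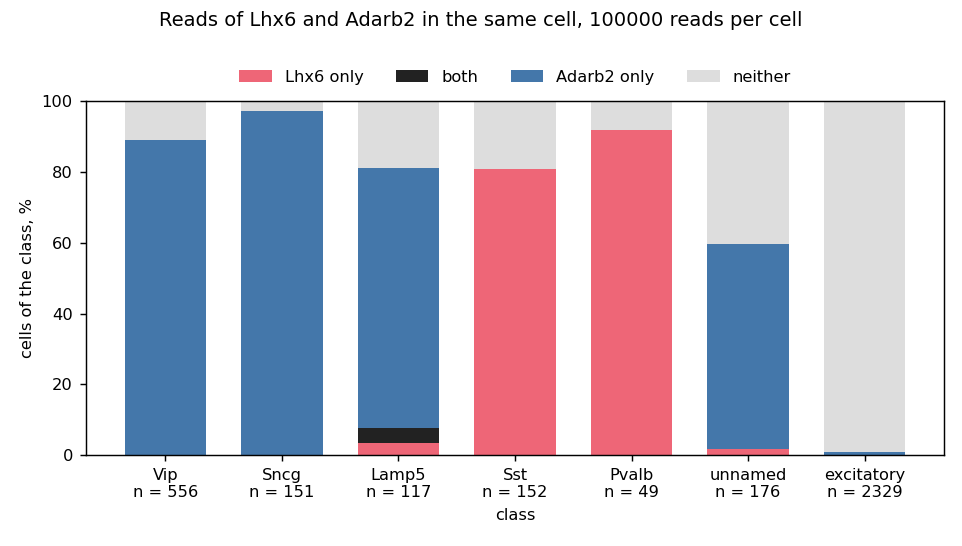
Share of cells of each class, in percent, with reads of Lhx6 alone, Adarb2 alone, both or neither at 100000 reads per cell. Cells with both number 6 in all, of which 5 lie in the Lamp5 class.

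The Lamp5 class held a small set of Lhx6 cells. They numbered 9 (7.69% of the class, exact 95% interval 3.58 to 14.1) and came from 6 mice. Of the 9, 8 lay in the Lamp5 cluster of 89 cells and 1 in the Lamp5 cluster of 28 cells. By mouse the Lamp5 level of Lhx6 was 0 CPM in Fear-Recall 2, 29.0 in Fear-Only 3 and 188.1 in Fear-Recall 3. Other genes were compared in these cells after their values were seen and carry no test. Of the 9 cells, 0 had a Nr2f2 read and 0 a Npas1 read, beside 94.4% and 50% of the other Lamp5 cells. Adarb2 was present in 5 of 9 against 79.6% of the others, and Prox1 in 3 of 9 against 71.3%. Nkx2-1, the factor upstream of Lhx6 in the medial eminence, was present in 6 of 9 and in 0 of the others. Lamp5 itself was present in 8 of 9 and 78.7% of the others, and Ndnf in 0 of 9 and 62.96%. Sst was present in 0 of 9 and Pvalb in 1 of 9, and each in 2 of the others. Median counts per cell were 924862 and 898513. Part of the mouse and human Lamp5 interneurons is known to carry Lhx6.

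Among the low-gene cells left without a name, Nr2f2 was present in 63.1%, Adarb2 in 58.0%, Dlx1 in 57.4% and Prox1 in 44.9% of them. Lhx6 was present in 3, or 1.70%.

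Genes whose levels ran with a member were sought over 32 sums of a mouse and class, among 8388 genes. The sums share mice and depth, and the classes were made from these cells, so the values of Pearson's r describe likeness only. Adarb2 was most like Htr3a (0.98), Cxcl14 (0.98) and Mlip, and Prox1 most like Cxcl14, Nfix and Mlip, each at 0.97. Lhx6 was most like Nrsn2 (0.89), Chodl (0.88) and Tox (0.88). Dlx1 was most like Cers5 (0.91), Dlx1as (0.90) and Htr3a (0.89).

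Among 25 other genes of interneuron lineages, Sox6, a factor of medially derived interneurons, stood at 50.1 ± 45.9 CPM in Sst cells (SD, 10 mice with at least 5 cells) and 27.8 ± 19.4 in Pvalb cells (n = 4), against 0.133 in Vip and 0 in Sncg and Lamp5 cells. At equal depth it was present in 0 of the 9 Lamp5 cells with Lhx6. Satb1 was at 314 ± 106 CPM in Sst cells and 9.01 ± 5.57 in Pvalb cells, and at 116.6 ± 19.6 in excitatory neurons, so it did not mark inhibitory cells. Sp8, a zinc-finger factor of caudal interneurons, was at 308 ± 218 CPM in Sncg and 165 ± 150 in Vip cells, and at 0.673 and 0 in Sst and Pvalb cells. Npas3, a relative of Npas1, was at 154.2 ± 67.4 CPM in Sncg and 2.16 ± 4.16 in Pvalb cells. Not all genes of the list followed the division of Lhx6 and Adarb2. Maf was at 103.6 ± 41.3 CPM in Vip, 130.1 ± 46.5 in Sncg, 44.1 ± 22.1 in Sst and 154.03 ± 59.7 in Pvalb cells. Nr2f1 was at 76.8 ± 35.1 CPM in Vip, 32.6 ± 27.4 in Sst, 1.94 ± 2.90 in Pvalb and 38.2 ± 16.3 in excitatory cells.

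The second question was whether cells of the pos gate differ from cells of the neg gate. In the sum of all neurons 4 of the 9 genes were higher in the pos gate, namely Dlx1, Prox1, Adarb2 and Nr2f2, and Lhx6 did not pass the test. A total of 8 mice had enough cells in both gates, with 55 to 329 cells a sum. Prox1 in pos and neg sums was 24.2 and 10.8 CPM in Context-Only 2, 42.7 and 32.6 in Context-Only 3, 48.8 and 28.2 in Context-Only 4, 39.8 and 9.34 in Fear-Only 2, 64.6 and 23.7 in Fear-Only 3, 66.6 and 19.3 in Fear-Recall 2, 35.7 and 15.5 in Fear-Recall 3, and 38 and 20.7 in Homecage 2. The pos sum was the higher in 8 of 8 mice, although the ranges of the gates overlap between mice. With mouse as a block, the log2 fold change of Prox1 was 1.31 (SE 0.18, edgeR adjusted p = 0.0172), that of Dlx1 1.04 (SE 0.14, 0.0172), that of Adarb2 1.42 (SE 0.21, 0.0260) and that of Nr2f2 1.26 (SE 0.22, 0.0478). Each of the 4 was higher in the pos sum in 8 of 8 mice.

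The other 5 genes did not pass. Their log2 fold changes were 1.38 for Dlx5 (SE 0.25, edgeR adjusted p = 0.0631), 0.79 for Npas1 (SE 0.15, 0.0809), 1.09 for Dlx6 (SE 0.40, 0.382), 0.76 for Dlx2 (SE 0.35, 0.473) and -0.06 for Lhx6 (SE 0.37, 0.966). Lhx6 averaged 9.55 ± 5.29 CPM in pos and 10.7 ± 6.41 CPM in neg sums. So 4 of 9 passed, all higher, where 0.287% of the 17752 genes tested passed in either direction and 0.259% were higher. DESeq2 called 6 of the 9, adding Dlx5 and Npas1, where it called 3.63% of all genes. Of the 25 other lineage genes 23 were tested, of which 3 passed as higher and 0 as lower. The 3 were Npas3 (1.396, edgeR adjusted p = 0.0172), Dlx6os1 (0.95, 0.0320) and Maf (1.119, 0.0478). The median of the 23 was 0.27 against 0.02 for all genes. At an unadjusted edgeR p under 0.05 stood 13 of the 23, 7 higher and 6 lower, beside 10.6% of all genes tested.

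The inhibitory neurons themselves were more frequent in the pos gate. They made up 39.9 ± 5.58% of pos cells and 21.3 ± 4.51% of neg cells (SD), higher in 8 of 8 mice. The sums of all neurons include this share, and its part in their gate differences was not tested. Within inhibitory neurons alone 0 of the 9 genes passed by edgeR. That fit recovered 18% of simulated 2-fold changes, against 76% for the fit in all neurons, so the 2 counts cannot be set side by side. The count of 4 in all neurons rested on few mice and on the low-gene cells. Adarb2 alone passed when the low-gene clusters were left out. When single mice were left out, 0 of 9 passed without Fear-Only 3, Fear-Recall 2 or Fear-Recall 3. A count of 2 passed without Fear-Only 2, and 3 without each other mouse. Without the mouse block Dlx1 and Prox1 passed.

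**Figure D4:**
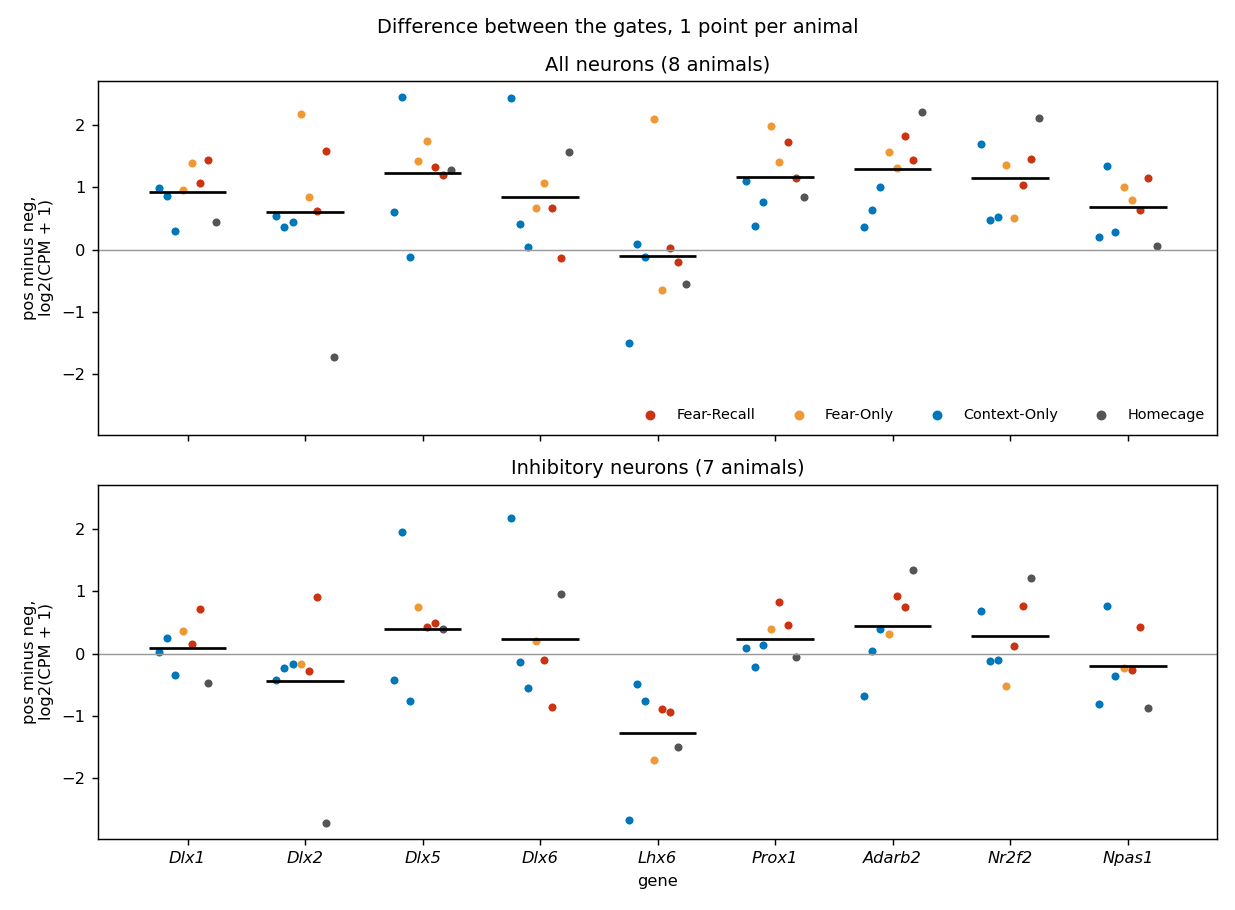
Difference between the pos and neg sums of a mouse, as log2(CPM + 1), for all neurons above and inhibitory neurons below; each point is 1 mouse, coloured by condition, and the bar marks the mean. Prox1 lies above 0 in 8 of 8 mice in all neurons, and Lhx6 below 0 in 7 of 7 in inhibitory neurons.

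Within inhibitory neurons alone, no member passed the test. A total of 7 mice had at least 10 inhibitory cells in both gates, with 10 cells or more a sum. Lhx6 in pos and neg sums was 11.2 and 76.8 CPM in Context-Only 2, 24.01 and 34.2 in Context-Only 3, 34.6 and 59.2 in Context-Only 4, 18.1 and 61.6 in Fear-Only 3, 25.9 and 48.9 in Fear-Recall 2, 57.6 and 111 in Fear-Recall 3, and 5.25 and 16.8 in Homecage 2. The pos sum was the lower in 7 of 7 mice, at 25.2 ± 17.2 against 58.4 ± 30.4 CPM, with overlapping ranges. At equal depth few neg cells had a Lhx6 read. They numbered 1 of 10 in Context-Only 4, 2 of 14 in Context-Only 2 and 3 of 16 in Context-Only 3. Homecage 2 had 2 of 26, Fear-Only 3 had 6 of 21, Fear-Recall 2 had 6 of 39 and Fear-Recall 3 had 10 of 21. In Context-Only 4 and Homecage 2 the share of such cells was higher in pos, at 14.3% and 9.76% against 10% and 7.69%. The log2 fold change of Lhx6 between the summed gates was -1.19 (SE 0.30, unadjusted edgeR p = 0.00248, adjusted p = 0.356). By edgeR 0% of 14308 genes passed, 1403 had an unadjusted p under 0.05, and DESeq2 called 378 genes (2.64%), Lhx6 among them as the 1 member, with a DESeq2 adjusted p of 0.00833.

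The other members did not pass either. Adarb2 had a log2 fold change of 0.58 (SE 0.24, edgeR adjusted p = 0.477), Dlx5 of 0.53, Nr2f2 of 0.42, Prox1 of 0.37 (adjusted p = 0.514), Dlx6 of 0.36 and Dlx1 of 0.23, while Npas1 stood at -0.07 and Dlx2 at -0.28. The median of all genes was 0.12. At equal depth Adarb2 was present in 73.3 ± 7.0% of pos and 58.7 ± 9.94% of neg inhibitory cells, and Lhx6 in 12.8 ± 3.38% and 20.3 ± 13.8% (SD, n = 7 mice), lower in pos in 5 of 7. Of 23 other lineage genes tested, 0 passed by edgeR and 5 had an unadjusted p under 0.05, the smallest for Tox3 at -2.14 (p = 0.00773) and Bcl11b at -0.97 (p = 0.0119).

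The make-up of the inhibitory cells was set beside this. Sst cells were 9.15% of pos and 16.1% of neg inhibitory cells (exact sign-flip p = 0.141, adjusted over 6 classes 0.375), Vip cells 42.1% and 31.1% (exact p = 0.188, adjusted 0.375), Sncg cells 11.9% and 17.3% (exact p = 0.375, adjusted 0.45), and Pvalb cells 4.41% and 3.84% (exact p = 0.75). The unnamed low-gene cells were 25.8 ± 34.3% of pos and 12.7 ± 8.39% of neg cells (SD, n = 7; exact p = 0.328, adjusted 0.45). They made up 75.6% of the pos inhibitory cells of Homecage 2, 73.0% of those of Context-Only 2 and 25.2% of those of Fear-Recall 2. Without the low-gene clusters Lhx6 stood at -0.94 on the log2 scale (SE 0.27, edgeR adjusted p = 0.772). Lamp5 cells were 6.66 ± 3.14% of pos and 18.9 ± 9.41% of neg cells, lower in 7 of 7 mice, with the smallest p that 7 mice allow (exact two-sided p = 0.0156, adjusted 0.0938). After adjustment 0 of the 6 classes passed. The part of these shares in the Lhx6 values was not tested. Of markers of excitatory neurons 0 of 6 were higher in pos inhibitory sums, with 0.0151 to 11.4 CPM in pos and 5.19 to 50.5 CPM in neg sums, and those of microglia were higher for 5 of 5, with 0 to 16.7 and 0 to 2.44 CPM. Astrocyte markers lay at 199.1 to 525.8 and 218.5 to 529.8 CPM, with 4 of 5 higher in pos. Their part was not tested either.

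Within the Vip class only 1 mouse had 10 cells in each gate, so no test was made. Over the 5 mice with at least 5 cells in each, Dlx1 stood at 337 ± 46.8 CPM in pos and 309.5 ± 77.01 in neg cells, Prox1 at 168.1 ± 58.3 and 185 ± 73.4, and Adarb2 at 161 ± 42.0 and 155 ± 33.4 (SD), all overlapping. In excitatory neurons 0.0298% of 16783 genes passed between the gates by edgeR and 1.32% by DESeq2. None of the 9 members reached the minimum count there, with means of at most 0.31 CPM.

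The last comparisons set the conditions against each other. None of the members passed between any conditions. In pos inhibitory cells of 8 mice, Lhx6 was 11.2, 24.01 and 34.6 CPM in Context-Only, 18.1 and 29.8 in Fear-Only, and 25.9, 55.4 and 57.6 in Fear-Recall. The highest 2 values were those of Fear-Recall mice, and the conditions overlapped. Within sets, Lhx6 was higher in Fear-Recall than in Context-Only in 3 of 3. The values were 25.9 and 11.2 CPM in set 2, 57.6 and 24.01 in set 3, and 55.4 and 34.6 in set 4. Dlx1, Dlx2 and Dlx5 were also higher in Fear-Recall in 3 of 3 sets, and Dlx6 was lower in 3 of 3. The order was thus not particular to Lhx6, and the remaining members went both ways. For Lhx6 the Fear-Recall against Context-Only log2 fold change was 0.92 (SE 0.46, unadjusted edgeR p = 0.0769, adjusted p = 0.994). With the set number as a block it was 0.95 (SE 0.42, edgeR adjusted p = 0.721). The members ranged from -0.73 to 0.92. Against Context-Only, Fear-Only ranged from -0.48 for Adarb2 to 0.58, and Fear-Recall against Fear-Only from -1.03 for Dlx6 to 0.92. By edgeR 0% of 17566 genes passed in each of the 3, with 718, 514 and 376 at an unadjusted p under 0.05, and DESeq2 called 0.211%, 0.171% and 0.0797%, no member among them. In pos Vip cells, Fear-Recall against Context-Only gave 0 of 15584 genes by edgeR, 643 at an unadjusted p under 0.05 and 90 (0.578%) by DESeq2, no member among them, and Nr2f2 stood at 0.74 (SE 0.51, edgeR adjusted p = 0.925).

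With all gates together, 17 mice could be compared and Homecage entered, but the gates are mixed in different parts in each mouse. Lhx6 was 0.251, 8.75 and 35.5 CPM in the 3 Homecage mice and 29.9, 55.4, 56.3, 67.2 and 117.8 CPM in the 5 Fear-Recall mice, so the groups overlapped by 1 Homecage mouse. In the 3 sets that held both, the Fear-Recall and Homecage values were 29.9 and 8.75 in set 2, 67.2 and 35.5 in set 3, and 56.3 and 0.251 in set 5, with Fear-Recall the higher in each. Context-Only lay at 25.2 ± 9.05 CPM (n = 5) and Fear-Only at 42.5 ± 19.4 (n = 4). Among these mice, Context-Only 5 and Context-Only 5b share a set number. The log2 fold change of Lhx6 against Homecage was 1.90 for Fear-Recall (SE 0.83, unadjusted edgeR p = 0.0336, adjusted p = 0.606), 1.43 for Fear-Only (SE 0.83, adjusted 0.888) and 0.69 for Context-Only (SE 0.78). It rested on single Homecage mice, with 3.64 for Fear-Recall without Homecage 3 and 1.33 without Homecage 5. By edgeR 0% of 17481 genes passed in each, with 1428, 856 and 965 at an unadjusted p under 0.05, and DESeq2 called 0.955%, 0.721% and 0.738%, again with no member. Adarb2 lay at means of 167.7, 176.3, 188.3 and 177.2 CPM in Context-Only, Fear-Only, Fear-Recall and Homecage.

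**Figure D5:**
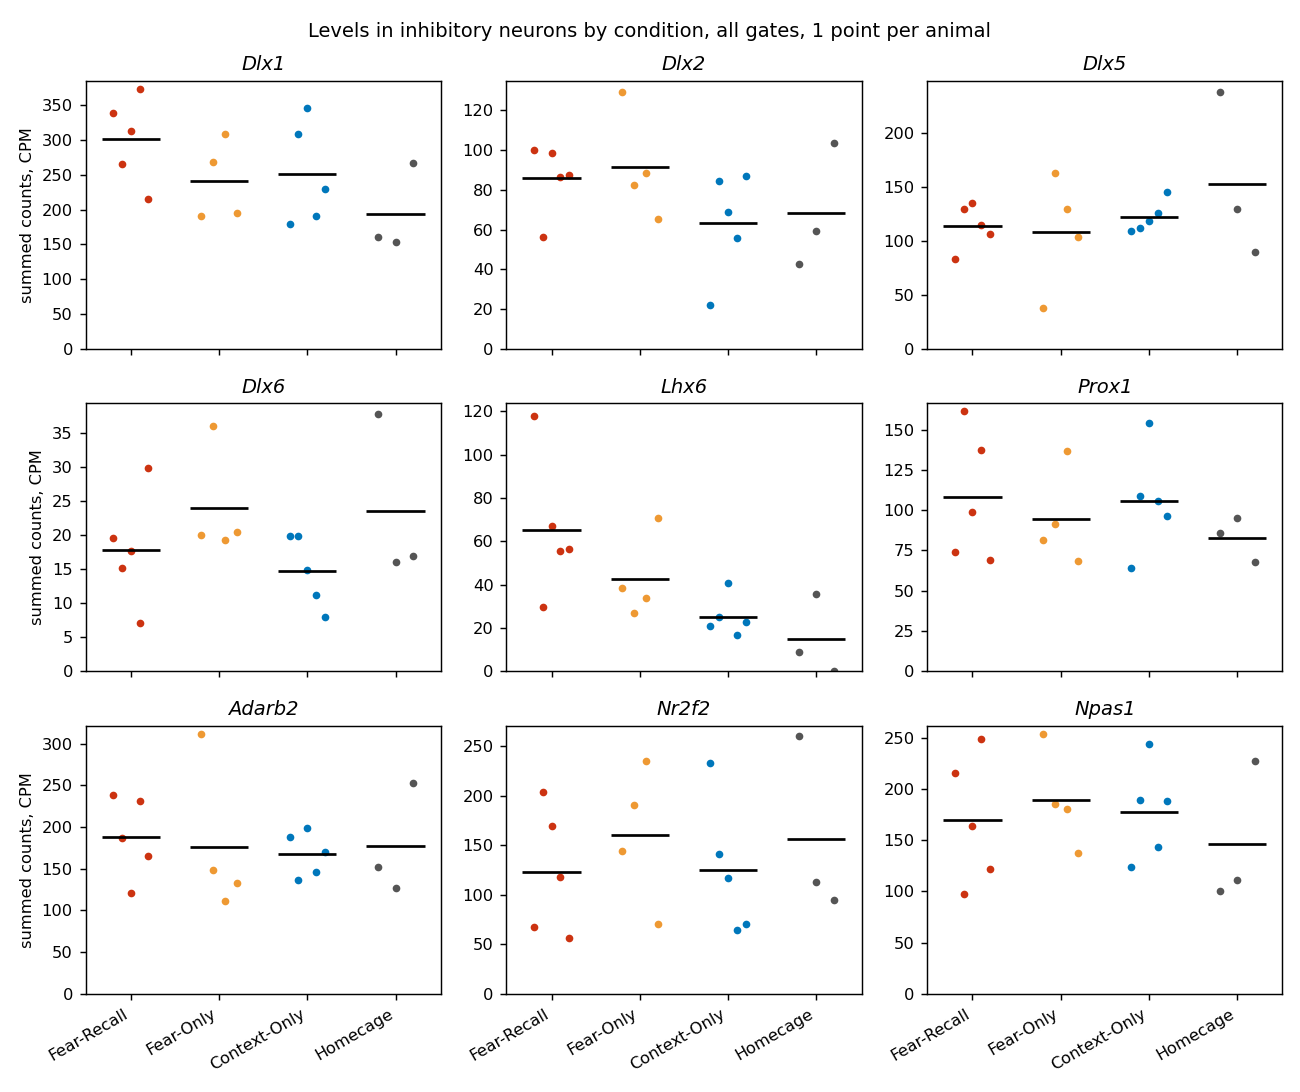
Level of the genes in CPM in inhibitory neurons of all gates; each point is 1 mouse and the bar marks the mean of a condition. Lhx6 spans 0.251 to 35.5 in Homecage and 29.9 to 117.8 in Fear-Recall mice, and Adarb2 overlaps between all conditions.

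Inside the pooled Sst and Pvalb cells, Lhx6 was also low in Homecage, which is given as values without a test. The mice with at least 5 such cells stood at 2.71, 42.9 and 113.6 CPM in Homecage, at 145.8, 194.9, 207.4 and 266.99 in Fear-Recall, at 89.98, 146.3, 173.2 and 218.4 in Fear-Only, and at 96.8, 124.5, 261.8 and 297.5 in Context-Only. Homecage overlapped with Fear-Only and Context-Only but not with Fear-Recall. The lowest mouse, Homecage 5, had 5 such cells and 8 Lhx6 reads in 1 of them. The median of genes detected in these cells was 4901, 6370 and 4163 in Homecage 2, 3 and 5. In the other mice with at least 5 such cells it was 5962 to 7300 in Fear-Recall, 5118 to 7407 in Fear-Only and 5617 to 7631.5 in Context-Only. In Fear-Only the mouse of lowest median, Fear-Only 5 with 5118 genes, had the highest Lhx6, at 218.4 CPM. In the other conditions the mouse of lowest median had the lowest Lhx6. These mice were Context-Only 2 (5617 genes, 96.8 CPM), Fear-Recall 5 (5962 genes, 145.8 CPM) and Homecage 5 (4163 genes, 2.71 CPM). The part of gene detection in the Lhx6 values was not tested. The share of Sst and Pvalb cells among inhibitory cells was 19.1 ± 12.5% in Homecage, 19.3 ± 9.63% in Fear-Recall, 21.9 ± 9.13% in Fear-Only and 11.6 ± 3.29% in Context-Only (SD).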

How the data were processed

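The deposited table holds raw read counts per gene and cell, 1 column a cell, as the values show and the labels describe for Smart-seq2 libraries. Bowtie 0.12.2 and the builds mm8 and mm10 are named in the submitters' processing notes (which tool assigned reads to genes, and whether strand was used: not given in the sources used here). Reads of the reporter were left out. The 9 genes and the lists were chosen with earlier results of these data known, and all 9 are named in every comparison that tests them. A few values of other genes are not reported here.

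Cells were clustered with scanpy 1.11.5 and leidenalg 0.10.2 (2000 variable genes, 30 components, 15 neighbours, resolution 1) without the 9 genes and their antisense genes, and the inhibitory cells were clustered again. Clusters were named by marker scores of at least 0.5 with at least 3 markers detected; this naming rule was revised after the data were seen, doublets were not removed by a caller, and class differences may come from these rebuilt names. Mice were taken from the condition and set number in the titles. In Context-Only, set number 5 held Context-Only 5 and Context-Only 5b, which were counted as separate mice. Counts were summed per mouse and gate or class with at least 10 cells, and tested with edgeR 4.0.16 in R 4.3.3 (TMM, filterByExpr with a minimum count of 10 and total of 15, quasi-likelihood test, Benjamini-Hochberg adjustment over all genes, threshold 0.05). The gates were compared with mouse as a block, since both come from the same mouse. A standard error is the fold change divided by the square root of F. Conditions were fitted without a block. Mice of the same set number deviated together, with correlations of 0.134 to 0.498 over 7 pairs of pos inhibitory sums. Pairs of different sets ran from -0.470 to 0.270, so the 2 ranges overlapped. Only 2 Fear-Only mice entered, so after centring their values mirror each other and the pairs are not independent. The labels do not say what the number marks. With all gates 1 pair was at 0.0814, under the limit of 0.1, and the mice there share only a number. Pairs of different sets reached 0.243 there, for Fear-Only 2 with Homecage 3. The block changed no call of the 9 genes. Alternatives were DESeq2 1.42.0, other size factors, no filter on low counts, 20 cells a sum, leaving out low-gene clusters, the replicate block and leaving out each mouse; that of the unnamed shares was added after the data were seen.

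On simulated data with 200 changed genes, 2-fold and 4-fold changes were recovered in 76% and 100% of cases for the gates in all neurons, 18% and 82% in inhibitory neurons, and 0% and 8% for the conditions in pos inhibitory cells. For the conditions with all gates the shares were 0% and 29%.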

Additional observations from a re-analysis of the deposited data

Results flagged for a closer look

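In 90 groups of 4 to 10 mice, 7 held a mouse that stood far from the others by Dixon's criterion. Chance gives about 1 in 20 groups.

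Homecage 2 was high in pos sums for 2 Dlx genes. Dlx5 was at 114.98 CPM there in all neurons, where the other 7 mice lay between 31.2 and 65.1, and at 255.9 CPM in inhibitory neurons, where the others lay between 101.0 and 151.6. Dlx6 was at 44.6 CPM in its pos inhibitory neurons against 13.3 to 22.7 in the others. Of the 41 pos inhibitory cells of this mouse 31 (75.6%) were unnamed cells with few genes, 3 were Vip cells and 0 were Sncg cells. The part of this in the Dlx values was not tested.

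In neg sums, Nr2f2 was at 60.8 CPM in all neurons of Fear-Only 3 against 22.2 to 39.7, Dlx1 at 414 CPM in inhibitory neurons of Context-Only 4 against 176.3 to 263.1, and Adarb2 at 278 CPM in inhibitory neurons of Context-Only 2 against 72.9 to 161. With all gates together, Dlx6 was at 36.1 CPM in inhibitory neurons of Fear-Only 2 against 19.3 to 20.5 in the other Fear-Only mice.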

How the results depend on the processing

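The gate count of 4 members in all neurons became 2 with no replicate block and 1 without the low-gene clusters, and 0 to 3 when each mouse was left out; it was 6 by DESeq2. The share of genes called there, 0.287%, became 3.63% by DESeq2, 0.107% with no replicate block and 0.00567% to 0.178% without each mouse. In inhibitory neurons DESeq2 called 1 member and 2.64% of genes, and leaving out each mouse gave 0% to 0.00706%. In excitatory neurons 0.0298% became 1.32% by DESeq2, 0% with no replicate block and 0% to 0.0353% without each mouse. For the conditions DESeq2 called 0.211%, 0.171% and 0.0797% of genes in pos inhibitory neurons (Fear-Recall and Fear-Only against Context-Only, and Fear-Recall against Fear-Only), with 0% to 0.00571% for the last 2 when mice were left out, 0.578% in pos Vip cells, and 0.955%, 0.721% and 0.738% with all gates. The replicate block changed no call of a member between conditions. Signs turned for Lhx6 in all neurons (0.27 without the low-gene clusters, -0.36 to 0.15 without each mouse) and, in inhibitory neurons, for Dlx2 (-0.50 to 0.046 without each mouse), Dlx6 (-0.067 without the low-gene clusters) and Npas1 (0.14 without the low-gene clusters, -0.20 to 0.042 without each mouse). The gate difference of the Pvalb share ran from -0.15 to 1.86 percentage points. Lhx6 between gates in inhibitory neurons kept its sign without each mouse, from -1.31 to -0.96 (log2). The causes were not tested. Alternatives for the Vip class between gates were not run, since only 1 mouse had 10 cells of the class in both gates, and no test was made at a lower minimum. Few mice and few cells a sum limit what could be detected.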
